A study of Mus musculus with 8 samples.

Results

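Complement components and regulators were examined in murine cardiac fibroblasts in primary culture under TGF-β, by the 9 genes C3, C4b, C2, Cfb, Cfd, C1ra, C1s1, Serping1 and Cd55. The genes were taken from the deposited table by symbol, and all 9 were found among its 22274 genes. Of these 9, 8 passed the filter on low counts, which left 13533 genes for testing, and Cfd did not. There were 4 libraries labelled GFP and 4 labelled OEIRF7 (IRF7 overexpression). All 8 came from cultured heart fibroblasts that carried a viral vector and received TGF-β at 5 ng/ml for 24 h. The mouse lines of the study had a C57BL/6J background, and the age and sex of the mice that gave these cells are not given in the sources used here. The study calls the control an empty vector. The labels name an adeno-associated virus and the study's text an adenovirus. In the study's reagent list the adenoviruses carry EGFP, with or without human IRF7, behind the CMV promoter, while the adeno-associated vector carries mouse Irf7 behind a periostin promoter. The labels do not say that the libraries of a group came from separate cultures, so p-values measure the spread between these libraries, which may be technical.

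Complement is a cascade of plasma and cell surface proteins that tags targets for uptake and lysis. In the classical pathway the C1 complex, with the proteases C1r and C1s, cleaves C4 and C2. In the alternative pathway factor D (Cfd) cleaves factor B (Cfb). Both routes form enzymes that cleave C3, and inhibitors such as Serping1 (C1 inhibitor) and Cd55 (decay-accelerating factor) restrain them. Most plasma complement is made by the liver, and fibroblasts and macrophages also make components locally.

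Total counts lay between 24888589 and 27095611 in the GFP libraries and between 24454801 and 28658826 in the OEIRF7 libraries, and each pair of replicates differed by more than sampling noise. Mouse Irf7 went against the label OEIRF7, with 2272 to 3680 counts in the GFP libraries and 380 to 421 in the OEIRF7 libraries (log2 fold change -2.96, standard error, SE, 0.12). With a human insert the mouse gene is no check of the labels. With mouse Irf7 as the insert, as in the adeno-associated vector, these counts go against the labels. Which insert the libraries carried cannot be told from the sources used here. Every direction is therefore given between the libraries labelled OEIRF7 and those labelled GFP. Were the labels exchanged, each direction would reverse, and this was not tested. Of 9 fibroblast markers, all were tested, 2 were higher and 4 lower, and their summed level was 13115 to 13555 CPM (counts scaled to the TMM library size) in the GFP libraries and 12218 to 13235 CPM in the OEIRF7 libraries. Markers of other cells were present too. The 8 macrophage markers summed to 287 to 344 and 340 to 385 CPM (3 higher, none lower), with C1qa, C1qb and C1qc among those that were not called. The 6 endothelial markers summed to 203 to 216 and 206 to 231 CPM (3 higher, 1 lower), the 5 mural markers to 65.7 to 72.3 and 77.3 to 97.3 CPM (2 higher, 1 lower), and the 5 epicardial markers to 138 to 146 and 91.6 to 107 CPM (2 higher, 2 lower). The 6 cardiomyocyte markers summed to 10.1 to 13.9 and 8.27 to 9.73 CPM (1 lower), mostly Tnnt2, with Myh6 and Myh7 at no more than 0.114 CPM in any library. What part these cells had in the complement values was not tested. The sums rest mostly on abundant markers and hide opposite changes of single genes. From the GFP to the OEIRF7 libraries, mean CPM of fibroblast Tcf21 went from 58.3 to 23.1 and of Vim from 2548 to 2968. Mural Cspg4 went from 22.4 to 63.3 CPM and Notch3 from 41.4 to 13.6 CPM. Epicardial Krt19 went from 4.75 to 18.5 CPM and Upk3b from 51.8 to 20.8 CPM. A sum is thus no measure of a cell type's share. In bulk RNA, fewer cells of a type and less RNA per cell cannot be told apart.

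Of the 8 complement genes tested, 3 were higher in the OEIRF7 libraries (C3, Cfb and C1s1), 2 were lower (Serping1 and Cd55), and 3 did not pass the test (C4b, C2 and C1ra). A gene was called where edgeR's quasi-likelihood test gave it an adjusted p under 0.05, with Benjamini-Hochberg adjustment over all tested genes. Calls were common in this comparison, since 58.9% of all tested genes passed in either direction, 29.0% as higher and 29.9% as lower. A count of 5 of 8 is therefore near the background, and the description below rests on the single genes and the size of their differences. The median log2 fold change of the 8 genes was 0.08, beside 0.0015 over all tested genes. The largest differences were rises. A log2 fold change past 1 together with the call was reached by C3 and Cfb, 2 of 8 genes, where 4.66% of all tested genes were this much higher, and no member was this much lower, where the background was 3.89% (8.56% in either direction). The groups did not overlap in the same 5 genes that were called, where the background of genes without overlap was 53.8%, 26.8% as higher and 27.0% as lower.

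**Figure D1:**
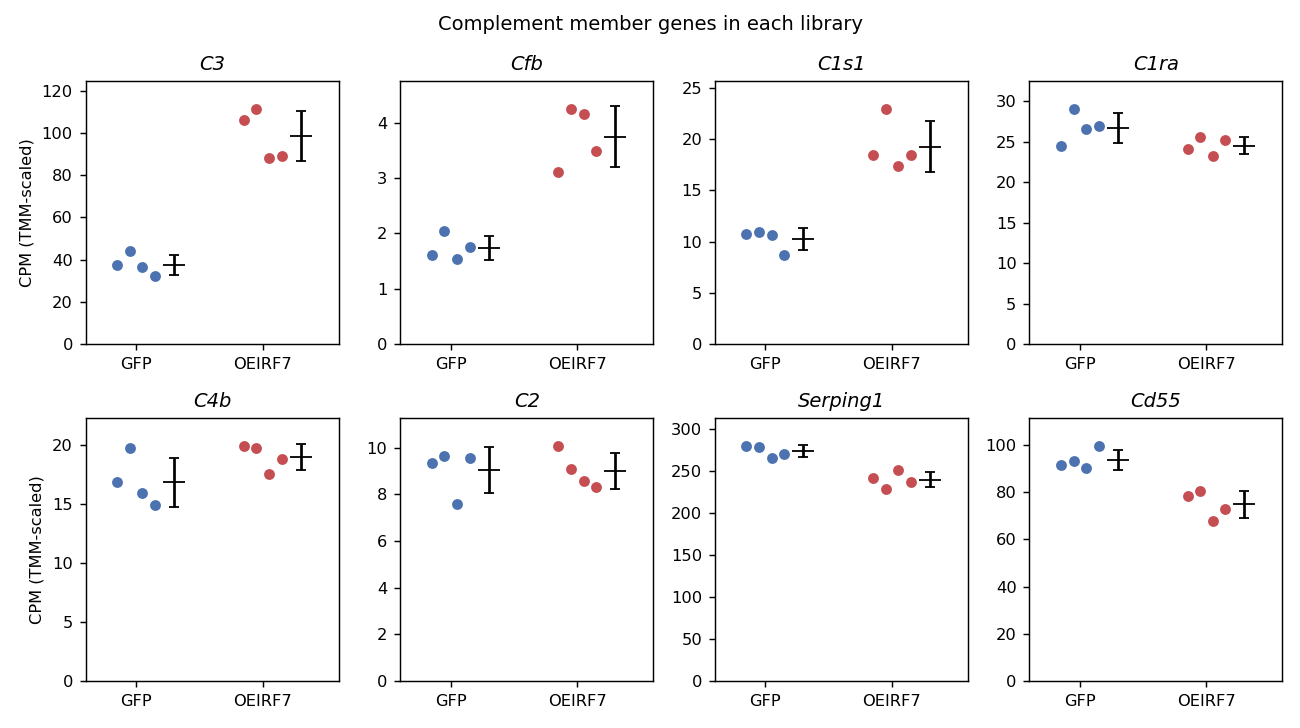
Level of each complement gene in CPM after TMM scaling (vertical axes, from 0), with 1 point per library (4 labelled GFP in blue, 4 labelled OEIRF7 in red) and black bars for the mean and SD. The points of C3, Cfb and C1s1 lie higher in all 4 OEIRF7 libraries, those of Serping1 and Cd55 lie lower, and those of C1ra, C4b and C2 overlap.

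C3, the central component on which all complement routes converge, had the largest rise of the 8 tested members. In GRCm38, C3 (ENSMUSG00000024164) occupies 57203970 to 57228136 of chromosome 17, minus strand. Its counts were 1004, 1096, 901 and 846 in the GFP libraries, replicates 1 to 4, and 2742, 3225, 2246 and 2190 in the OEIRF7 libraries. Every OEIRF7 library was thus above every GFP library. The mean of 37.5 ± 4.81 CPM became 98.6 ± 11.9 CPM (SD, n = 4 per group), a 2.63-fold difference with a 95% interval of 2.30 to 3.0. The log2 fold change was 1.40 (SE 0.090, edgeR adjusted p = 6.8e-09), which placed C3 at rank 378 from the highest of 13533 tested genes. Leaving out each library in turn kept the value between 1.33 and 1.48.

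Cfb, the protease subunit of the alternative pathway convertase, rose from a low level. Cfb (ENSMUSG00000090231) is found on the minus strand of chromosome 17 from 34856374 to 34862518. It had 43, 51, 38 and 46 counts in the GFP libraries and 80, 123, 106 and 86 counts in the OEIRF7 libraries, without overlap. The mean was 1.74 ± 0.224 and 3.75 ± 0.547 CPM (SD, n = 4 per group). The difference was 2.16-fold with a 95% interval of 1.69 to 2.76, on the log2 scale 1.11 (SE 0.17, edgeR adjusted p = 4.1e-05). With limma on FPKM the difference was smaller and still called, 0.46 on log2(FPKM + 1), a scale on which low genes change less, and 0.83 on log2(FPKM + 0.1). Which members were past a log2 fold change of 1 thus depended on the measure, since on log2(FPKM + 0.1) these were C3 with 1.46 and C1s1 with 1.04, and on log2(FPKM + 1) C3 alone with 1.35. Of the exon bases of Cfb, 79.5% are also exon bases of Gm20547, an annotated gene on the same strand that overlaps both Cfb and C2 and had 6 counts in all. How the counting treated reads that fit several genes is not given in the sources used here, so the level of Cfb is uncertain.

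C2, the counterpart of Cfb in the classical and lectin pathways, stands next to it in the genome, on the same strand from 34862604 to 34898265. Counts of C2 (ENSMUSG00000024371) were 251, 241, 187 and 251 in the GFP libraries and 260, 264, 218 and 205 in the OEIRF7 libraries. The groups overlapped. The mean was 9.04 ± 0.986 and 9.01 ± 0.783 CPM (SD, n = 4 per group), and the 95% interval of the fold difference ran from 0.863 to 1.15 (edgeR adjusted p = 0.97). Of its exon bases, 42.8% are shared with Gm20547. In each library the FPKM of Cfb (reads scaled to gene length and depth, as the authors deposited them) was divided by that of C2, and the ratio was 0.179 to 0.253 in the GFP libraries and 0.297 to 0.450 in the OEIRF7 libraries.

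The C1 proteases C1ra and C1s1, which act in the same complex, differed in behaviour. Their genes lie tail to tail on chromosome 6, C1ra (ENSMUSG00000055172) on the plus strand from 124512405 to 124523443 and C1s1 (ENSMUSG00000038521) on the minus strand from 124530345 to 124542359. C1s1, the protease that cleaves C4 and C2, had 288, 273, 262 and 228 counts in the GFP libraries and 475, 665, 442 and 454 in the OEIRF7 libraries. All OEIRF7 libraries were above all GFP libraries. Its mean of 10.2 ± 1.04 CPM became 19.3 ± 2.48 CPM (SD, n = 4 per group), 1.88-fold with a 95% interval of 1.63 to 2.18 (log2 fold change 0.91, SE 0.098, edgeR adjusted p = 1.5e-06).

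C1ra, the protease that activates C1s, had 654, 724, 656 and 705 counts in the GFP libraries and 620, 741, 591 and 623 in the OEIRF7 libraries. The groups overlapped, with means of 26.7 ± 1.88 and 24.5 ± 1.09 CPM (SD, n = 4 per group). The 95% interval of the fold difference was 0.839 to 1.01 (log2 fold change -0.12, edgeR adjusted p = 0.096). Without GFP replicate 1 it was -0.17 and passed (edgeR adjusted p = 0.032). Within a library, the FPKM of C1s1 divided by that of C1ra was 0.331 to 0.449 in the GFP libraries and 0.765 to 0.978 in the OEIRF7 libraries. With counts in place of FPKM this ratio was 0.323 to 0.440 and 0.729 to 0.897. The groups did not overlap on either scale, which restates the difference of C1s1 and is no separate result.

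Both proteases have related copies in the genome. Of the windows of 150 bases in the longest C1ra transcript, 26.3% occur unchanged in C1rb, and 2.86% of those of C1s1 occur in C1s2. C1rb had at most 3 counts and C1s2 at most 10 in any library. With the counts of each pair summed, the log2 fold change of C1s1 was 0.92. With so few counts in the copies this sum could change little. It also does not recover reads fitting both copies, if the counting left them out. An antisense gene, Gm16567, overlaps 18.4% of the exon bases of C1s1 on the opposite strand, and the strand setting of the counting is not given in the sources used here.

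C4b encodes complement C4, which is cleaved by C1s. C4b (ENSMUSG00000073418) lies on chromosome 17 from 34728380 to 34743882. The libraries held 450, 492, 392 and 390 C4b counts in the GFP group and 513, 571, 446 and 463 in the OEIRF7 group. In CPM, GFP replicate 2 lay within the range of the OEIRF7 libraries and the other GFP libraries below it. The mean was 16.8 ± 2.08 and 19.0 ± 1.08 CPM (SD, n = 4 per group), a log2 fold change of 0.17 (SE 0.083, edgeR adjusted p = 0.083). This call depended on single libraries. Without GFP replicate 2 the value was 0.26 (edgeR adjusted p = 0.0068), without OEIRF7 replicate 3 it was 0.21 (edgeR adjusted p = 0.045), and without each of the other libraries it did not pass. With the replicate number as a block the value was 0.18 (edgeR adjusted p = 0.040). Of the 150-base windows of C4b, 8.26% occur unchanged in its copy C4a, which was not among the genes with deposited counts. How reads that fit both copies were counted is not given in the sources used here.

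Cfd, adipsin, the protease that activates factor B, had 0 counts in all 8 libraries. A count of 0 allows up to 0.105 to 0.123 CPM per library (3 counts of the total, counting error only). Its place on the plus strand of chromosome 10, from 79890853 to 79892655, holds no exon base shared with another gene. Cfd is known as an abundant product of fat cells. None of the 5 adipocyte markers passed the filter, and their summed level did not exceed 0.0746 CPM in any library, with Lep, Cidec and Retn at 0.

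Serping1 and Cd55, the inhibitors among the members, moved the other way from C3, by smaller amounts. Regulators outside the members went in both directions, as given below. Serping1, which inactivates C1r and C1s, was the most abundant member. Serping1 (ENSMUSG00000023224) is found on the minus strand of chromosome 2 from 84765387 to 84775444. The libraries held 7488, 6953, 6531 and 7063 Serping1 counts in the GFP group and 6215, 6632, 6379 and 5838 in the OEIRF7 libraries. In CPM all OEIRF7 libraries were below all GFP libraries, with means of 239 ± 9.10 and 273 ± 7.22 (SD, n = 4 per group). The log2 fold change was -0.19 (SE 0.036, edgeR adjusted p = 0.00031), which is 0.876-fold with a 95% interval of 0.831 to 0.924.

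Cd55, a membrane protein that breaks up the C3 convertases, fell somewhat more. Cd55 (ENSMUSG00000026399) is found on the minus strand of chromosome 1 from 130439027 to 130462744. It had 2457, 2327, 2225 and 2611 counts in the GFP libraries and 2022, 2332, 1722 and 1797 in the OEIRF7 libraries. After scaling the groups were apart, with 93.7 ± 4.14 CPM in the GFP libraries and 74.8 ± 5.76 CPM in the OEIRF7 libraries (SD, n = 4 per group). The fold difference was 0.799 with a 95% interval of 0.739 to 0.864 (log2 fold change -0.32, SE 0.052, edgeR adjusted p = 9.0e-05). Its copy Cd55b had at most 3 counts in any library, and 2.25% of the 150-base windows of Cd55 occur in it.

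**Figure D2:**
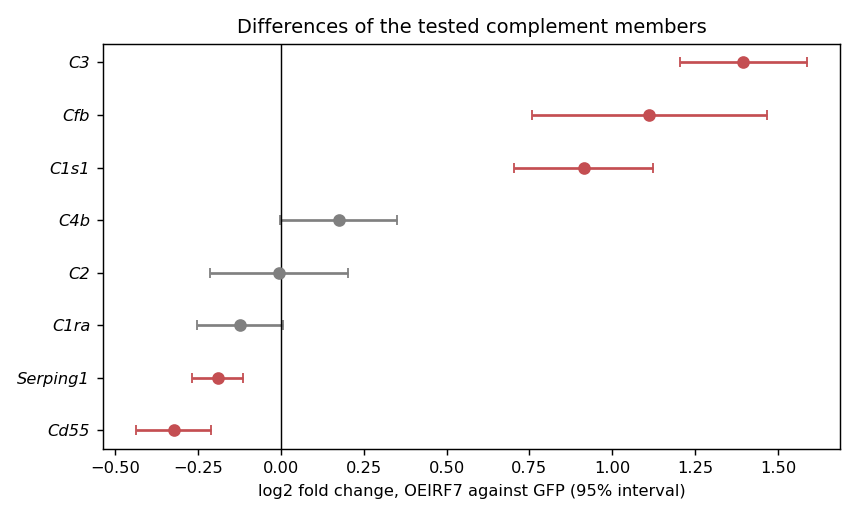
Log2 fold change of the 8 tested complement genes between the OEIRF7 and GFP libraries (horizontal axis), with 95% intervals from the fit. Genes with an adjusted p under 0.05 are red and the others grey. C3, Cfb and C1s1 lie at 1.40, 1.11 and 0.91, and Serping1 and Cd55 at -0.19 and -0.32.

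Levels can be compared between genes only per gene length, for which the FPKM were used. In the GFP libraries the order was Serping1 with 153 ± 4.01 FPKM, Cd55 with 39.8 ± 2.04, C1ra with 8.88 ± 0.633, C3 with 7.35 ± 1.15, C2 with 3.51 ± 0.136, C1s1 with 3.48 ± 0.354, C4b with 3.10 ± 0.386 and Cfb with 0.735 ± 0.132 FPKM (SD, n = 4 each). The ranges of C1ra and C3 overlapped, as did those of C2, C1s1 and C4b, so these neighbours were not set apart. In the OEIRF7 libraries C3 was above C1ra, with 20.3 ± 2.46 against 8.30 ± 0.392 FPKM (SD, n = 4 each). C1s1, at 7.29 ± 1.06 FPKM, was above C2 at 3.62 ± 0.266 and overlapped C1ra. Among the members Serping1 and Cd55 kept the highest levels there, 136 ± 4.66 and 33.0 ± 2.87 FPKM (SD, n = 4 each). Cfd was listed at 0 in both groups.

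RNA levels of other members can be set beside those of the member inhibitors Serping1 and Cd55 within each library. Other regulators are not part of these shares and ratios. Serping1 made up 68.9% to 70.6% of the summed FPKM of the 9 genes in the GFP libraries and 60.8% to 67.3% in the OEIRF7 libraries. C3 made up 2.84% to 3.95% and 8.16% to 10.5%. These shares are parts of the same sum, so a rise of C3 by itself lowers the share of Serping1. The FPKM of C3 divided by that of Cd55 was 0.145 to 0.226 in the GFP libraries and 0.585 to 0.633 in the OEIRF7 libraries. For C1s1 over Serping1 it was 0.0196 to 0.0243 and 0.0421 to 0.0648. For C1ra over Serping1 the groups overlapped, at 0.0518 to 0.0618 and 0.0550 to 0.0662. These ratios are descriptions of RNA levels, restate the differences of the single genes and were not tested.

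**Figure D3:**
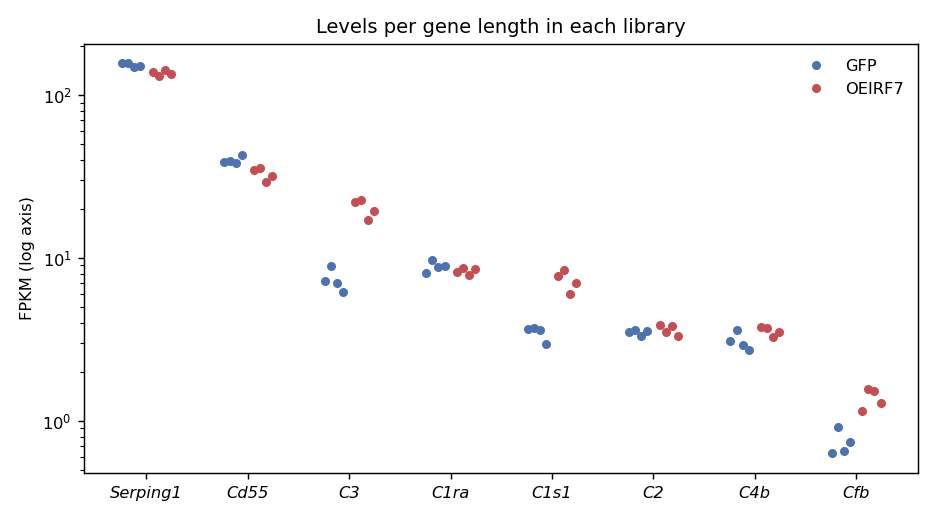
Deposited FPKM of the complement genes other than Cfd, on a log axis, ordered by their mean over the 8 libraries, with 1 point per library (GFP blue, OEIRF7 red). Serping1 lies at 130.9 FPKM or more in every library and Cfb at 1.57 or less, and the 4 OEIRF7 points of C3 lie above all points of C1ra.

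**Figure D4:**
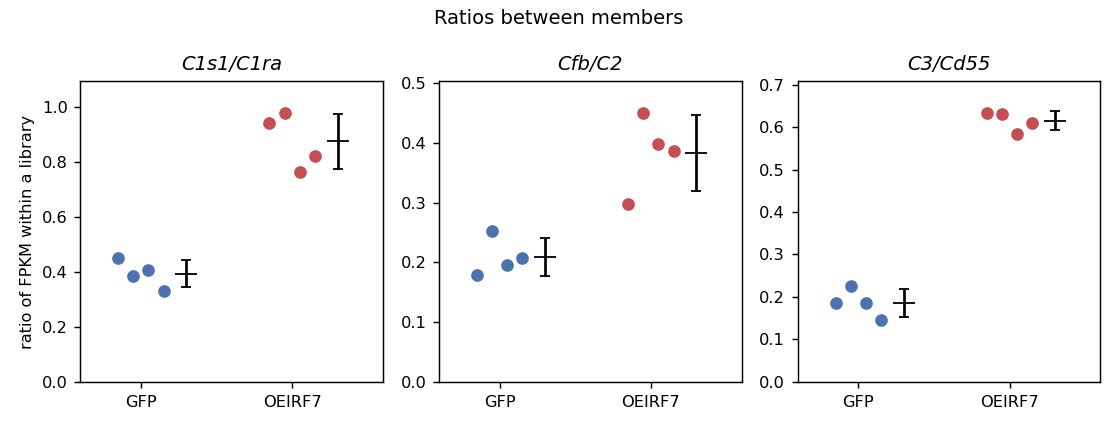
Ratios of FPKM within each library for C1s1 over C1ra, Cfb over C2 and C3 over Cd55 (vertical axes, from 0), with 1 point per library and black bars for the mean and SD (n = 4 per group). In all 3 ratios every OEIRF7 point is above every GFP point. In each ratio the first gene was called higher and the second was not, so this restates the single genes. C1s1 over C1ra was not among the ratios planned. C1ra over Serping1, whose groups overlapped, and C1s1 over Serping1 are not shown.

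Promoter sequences of 300 bases, from 250 before to 50 after the annotated start, were taken from RefSeq on GRCm38.p6 and matched to 5 of the 9 genes (C3, C1s1, C1ra, Cd55 and Cfd). They were searched on both strands for letters of 3 kinds, namely an interferon-response type (GAAA, 2 bases of any kind, GAAA), a STAT type (TTCNNNGAA) and an NF-kB type (GGGA, 4 bases of any kind, CC). Sequences of C3 and C1s1, which rose, and of Cd55, which fell, are shown with each match of the NF-kB type in capitals, read 5′ to 3′ along the gene. C3 is at chr17:57228087-57228386 (minus strand), C1s1 at chr6:124542272-124542571 (minus strand) and Cd55 at chr1:130462695-130462994 (minus strand).

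C3: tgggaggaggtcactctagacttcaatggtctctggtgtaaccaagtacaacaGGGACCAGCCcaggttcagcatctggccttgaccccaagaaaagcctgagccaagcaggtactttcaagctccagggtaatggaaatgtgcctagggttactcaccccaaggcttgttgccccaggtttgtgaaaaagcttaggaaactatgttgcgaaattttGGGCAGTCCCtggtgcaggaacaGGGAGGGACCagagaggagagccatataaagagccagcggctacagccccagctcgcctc

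C1s1: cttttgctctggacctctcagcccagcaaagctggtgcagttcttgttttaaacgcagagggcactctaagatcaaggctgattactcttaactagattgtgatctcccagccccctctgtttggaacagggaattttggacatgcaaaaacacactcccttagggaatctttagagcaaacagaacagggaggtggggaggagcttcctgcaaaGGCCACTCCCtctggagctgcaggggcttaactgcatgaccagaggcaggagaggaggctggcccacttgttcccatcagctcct

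Cd55: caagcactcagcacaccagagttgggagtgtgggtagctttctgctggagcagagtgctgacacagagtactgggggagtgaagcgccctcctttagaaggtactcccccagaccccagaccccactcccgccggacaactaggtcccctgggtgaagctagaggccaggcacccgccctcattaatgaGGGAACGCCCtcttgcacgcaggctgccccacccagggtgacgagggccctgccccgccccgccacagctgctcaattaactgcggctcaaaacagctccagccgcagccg

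The C3 promoter held 3 matches of the NF-kB type, from -197 to -188, -33 to -24 and -10 to -1 relative to the annotated start at 0, the second of them on the opposite strand. C1s1 held 1 match in each of its 2 annotated windows, which overlap and share the same site, and Cd55 held 1. These letters were found in C3 and C1s1, which rose, and in Cd55, which fell, and 20.7% of all 32851 promoter windows hold them. C1ra and Cfd held no match of this type. No promoter was matched to Cfb, which rose, to Serping1, which fell, or to C4b and C2. The STAT type was found once, in C1ra, where it is in 8.30% of all windows. The interferon-response type was in none of the 5 genes and in 3.44% of all windows. No match overlapped another, and a match is not evidence of binding.

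The rest of the complement system was followed by a list of 50 other genes, of which 48 were in the table and 29 were tested. Of the 29, 7 were higher and 6 lower in the OEIRF7 libraries, 44.8% in all, where the background was 58.9%. Their median log2 fold change was 0.06, beside 0.0015 over all tested genes. Called and past a log2 fold change of 1 were Itgam, higher, and Colec10 and Colec11, lower. Of all tested genes, 4.66% were this much higher and 3.89% this much lower (8.56% in either direction), so these few genes are near the background.

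Among the recognition molecules, 7 of 10 were tested, with 1 higher and 2 lower. That is 42.9% called, below the 58.9% of all tested genes. The C1q chains C1qa, C1qb and C1qc, which form the recognition part of C1 and are made chiefly by macrophages, did not pass, with log2 fold changes of 0.14, -0.32 and -0.13 (edgeR adjusted p = 0.13, 0.064 and 0.38). C1qb passed without GFP replicate 4 (-0.40, edgeR adjusted p = 0.038), without OEIRF7 replicate 4 (-0.43, edgeR adjusted p = 0.022) and with no filter beyond a total of 1 count (-0.33, edgeR adjusted p = 0.049). Colec11 (collectin-11), a lectin pathway recognition molecule, fell from 3.91 ± 0.363 to 1.44 ± 0.174 CPM (SD, n = 4 per group), a log2 fold change of -1.45 (SE 0.16, edgeR adjusted p = 1.9e-06). Its counts were 119, 94, 94 and 95 in the GFP libraries and 36, 36, 37 and 41 in the OEIRF7 libraries, so the groups were far apart. Colec10, its partner, fell too, from 14 to 22 counts down to 5 to 13 counts, a level at which a few counts decide the size. In limma on log2(FPKM + 1) the fall of Colec10 did not pass (adjusted p = 0.059). Fcna (ficolin A) rose by 0.87 on the log2 scale with overlapping groups of 8 to 19 and 17 to 35 counts. The call of Fcna was lost without any of GFP replicates 1, 3 and 4 and OEIRF7 replicates 1 and 4 (edgeR adjusted p from 0.069 to 0.14), and with no filter beyond a total of 1 count (edgeR adjusted p = 0.052).

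Of the other proteases and convertase components, 3 of 7 were tested. C1rl, a relative of C1r, was lower by 0.33 on the log2 scale (edgeR adjusted p = 0.0042), with overlapping groups. Masp1, a protease of the lectin pathway, had 81.9 ± 7.62 and 90.6 ± 8.84 CPM (SD, n = 4 per group) and did not pass (edgeR adjusted p = 0.092), while it did with the replicate number as a block (adjusted p = 0.0089), with no scaling beyond library size (adjusted p = 0.044) and without GFP replicate 4 (adjusted p = 0.047). Of the 7 terminal components, which build the membrane attack complex, Hc (C5) alone was tested, at 3.37 ± 0.183 and 3.67 ± 0.402 CPM (SD, n = 4 per group) without a call. C6, C7, C8a, C8b, C8g and C9 had at most 13 counts in any library.

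The regulators held 10 tested genes of 17, with 2 higher and 3 lower. The share called was below the 58.9% of all tested genes called in either direction, 29.0% as higher and 29.9% as lower. Cfi (factor I), the protease that degrades C3b, fell from 23.2 ± 2.34 to 16.2 ± 0.826 CPM (SD, n = 4 per group; log2 fold change -0.52, edgeR adjusted p = 3.0e-05). Cd59a, which blocks the membrane attack complex, was lower by 0.37 on the log2 scale. In Cfi and Cd59a, as in Serping1 and Cd55, the groups did not overlap, and 27.0% of all tested genes were lower without overlap. Cr1l (Crry), a membrane regulator of rodents that acts on C3b and C4b, went the other way, from 62.9 ± 3.46 to 79.7 ± 4.41 CPM (SD, n = 4 per group; log2 fold change 0.34, edgeR adjusted p = 2.8e-05). The groups of Cr1l did not overlap. Per gene length Cr1l had 39.9 ± 2.75 and 50.3 ± 1.99 FPKM (SD, n = 4 per group), which was above Cd55 in the OEIRF7 libraries. Clu (clusterin) rose by 0.17 on the log2 scale with overlapping groups. Its call was lost without any of GFP replicates 1, 2 and 3 and OEIRF7 replicates 1, 2 and 4 (edgeR adjusted p from 0.052 to 0.081).

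Of 9 receptors, 8 were tested, with 4 higher and none lower. The share called was below the 58.9% of all tested genes called in either direction. The share called higher was above the 29.0% of all tested genes, and with 8 genes this was not tested. The receptors of the C3a and C5a peptides, C3ar1 and C5ar1, did not pass, with 14.1 ± 1.51 and 13.7 ± 1.27 CPM for C3ar1 and 2.43 ± 0.411 and 2.15 ± 0.698 CPM for C5ar1 (SD, n = 4 per group). The integrin chains of complement receptors 3 and 4, which bind the C3 fragment iC3b on myeloid cells, were all higher. Itgam (CD11b) had 335 to 404 counts in the GFP libraries and 746 to 820 in the OEIRF7 libraries, a log2 fold change of 1.07 (SE 0.060, edgeR adjusted p = 1.6e-09). Their shared chain Itgb2 rose by 0.65 and Itgax by 0.62 on the log2 scale, both without overlap, as did 26.8% of all tested genes. The macrophage markers given above had 3 of 8 higher, by at most 0.44 on the log2 scale (Adgre1), and the part of macrophages in these values was not tested. Cd93, a receptor first linked to C1q, rose by 0.13 on the log2 scale with overlapping groups, and its call was lost without any of GFP replicates 1, 2 and 3 and OEIRF7 replicates 1 and 2 (edgeR adjusted p from 0.052 to 0.099). It was also lost in limma on log2(FPKM + 1) and on log2(FPKM + 0.1) (adjusted p = 0.059 and 0.055).

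**Figure D5:**
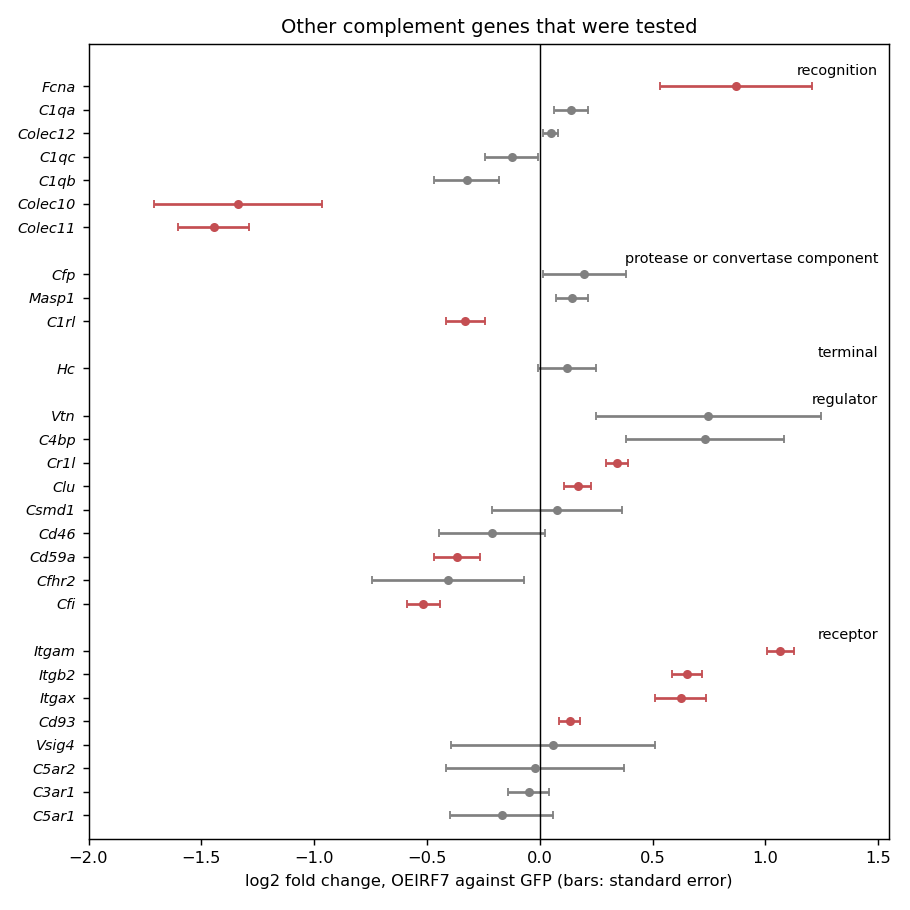
Log2 fold change between OEIRF7 and GFP libraries for the tested genes of the wider complement list except 1 that is not reported here, grouped by role, with standard errors as bars and genes with an adjusted p under 0.05 in red. Itgam, Itgb2 and Itgax lie to the right at 1.07, 0.65 and 0.62, Colec10 and Colec11 to the left at -1.34 and -1.45, and Cfi and Cd59a at -0.52 and -0.37.

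The tested genes whose pattern over the 8 libraries was most like that of C3 were H2-Q4, Vcam1, Tmod1, Gadd45a and Cxcl16. Likeness was the root mean square difference of log2 CPM, each gene centred on its own mean, over 10319 genes with a mean of at least 5 CPM across the 8 libraries, and these 5 were 0.10, 0.110, 0.117, 0.123 and 0.125 away from C3. A group difference close to that of C3 follows from this choice and is no separate result. Vcam1, a leukocyte adhesion molecule, went from 242 ± 16.4 to 563 ± 60.6 CPM, and Cxcl16, a chemokine, from 39.1 ± 1.01 to 101 ± 7.17 CPM (SD, n = 4 per group). Tmod1, at 3.41 ± 0.506 CPM in the GFP libraries and 9.56 ± 1.18 CPM in the OEIRF7 libraries (SD, n = 4 per group), reached that mean through the OEIRF7 libraries. H2-Q4 belongs to the MHC class I family, whose members are alike enough that reads may be split between them.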

How the data were processed

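RNA-seq was analysed for 8 libraries of primary murine cardiac fibroblasts under TGF-β, 4 labelled GFP and 4 labelled OEIRF7. The raw counts deposited by the authors came from HTSeq-count after trimming by Trimmomatic and HISAT2 mapping to GRCm38 (also mm10 in the submitters' processing notes). FPKM computed by Cufflinks were deposited beside them. Versions and the counting mode are not given in the sources used here. The TGF-β dose and time are those of the study's text. The study and the labels differ on the RNA and library kits. The authors' group means, fold changes, p-values and FDR were not used.

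Genes were kept by filterByExpr and compared in R 4.3.3 with edgeR 4.0.16 (TMM, glmQLFit, glmQLFTest, no covariates, Benjamini-Hochberg over 13533 genes). Scaling factors lay between 0.989 and 1.01. Standard errors are the log2 fold change over the root of F, and 95% intervals use the fit's degrees of freedom. Log2 CPM used a prior count of 2. Overlap was judged on scaled CPM. Coordinates, exons and transcripts were those of GENCODE M21. In 121 symbols the letters GFP had replaced nc and were restored by identifier. The tests were checked on simulated counts.

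Members and lists were chosen with earlier results of these data known. Named are the 9 members, their copies, C3ar1, C5ar1, Irf7, genes of the wider list past a log2 fold change of 1, and the 5 genes most like C3. Other called genes of the wider list, the C1q chains, Masp1, Hc and markers were named after their values were seen. Alternatives were other scalings and filters, DESeq2 1.42.0, limma 3.58.1 on log2(FPKM + 1) and log2(FPKM + 0.1) with a mean above 0.1 FPKM, a replicate block, leaving out each library, and summed copies. Genes at few counts rest on little depth. The values of 1 gene of the wider list are not reported here, though it stays in the counts.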

Additional observations from a re-analysis of the deposited data

Results flagged for a closer look

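In 5 of 76 groups of 4 libraries, taken over the tested complement genes and Irf7, 1 library stood apart from the other 3 by a gap past Dixon's 95% critical value, and chance gives about 1 in 20. Those of C2 and C1s1 concern members in the GFP libraries. C2 was 7.58 CPM in GFP replicate 3, against 9.37 to 9.65 in the others. C1s1 was 8.70 CPM in GFP replicate 4, against 10.6 to 10.9, and without this library its log2 fold change was 0.84. In the OEIRF7 libraries, C1qa was 22.6 CPM in replicate 4 against 18.3 to 19.1, Cfi was 15 CPM in replicate 3 against 16.6 to 16.7, and Cr1l was 86.3 CPM in replicate 3 against 77.2 to 78.1.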

How the results depend on the processing

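The number of members called was 5 or 6 under all 17 alternatives, and 10 to 14 genes of the wider list and 7402 to 8211 of all genes were called under 16. C3, Cfb, C1s1, Serping1 and Cd55 kept their direction and their call under all 17. Of 136 alternative values of members, 123 kept direction and side of the threshold and 4 passed it newly, for C4b and C1ra. The other 9 were values of C2 that changed sign around 0 without a call. They were 0.022 with no scaling beyond library size, 0.00071 with at least 10 counts in every library, and 0.033 and 0.041 in limma on log2(FPKM + 1) and log2(FPKM + 0.1). The others were values above 0 without 1 library, up to 0.031. All values of C2 without 1 library ran from -0.080 to 0.031, and those below 0 kept the sign. C3ar1 and C5ar1 changed sign too, at 0.012 and 0.0083 without OEIRF7 replicate 3. Their ranges without 1 library were -0.12 to 0.012 and -0.37 to 0.0083. Of 423 values of other named genes, 20 lost the call and 6 gained it. Replicate numbers are shared by the groups, but the deviations of same-numbered libraries correlated at 0.079, 0.095, 0.14 and 0.10, not all above 0.1, so they were not taken as pairs, although every library correlated best with its own number. With the replicate number as a block, 6 members were called in place of 5, 14 wider genes in place of 13 and 8211 genes in place of 7969. C4a and C4b could not be summed, since C4a was not among the genes with deposited counts. Calls below about 1 CPM rest on few counts.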
